A study of Homo sapiens with 6 samples.

Results

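The genes described here are 10 core components of the machinery that carries cells through G1: the D-type cyclins CCND1 and CCND3, their kinases CDK4 and CDK6, the E-type cyclins CCNE1 and CCNE2, the inhibitors CDKN1A, CDKN1B and CDKN2C, and RB1. They were chosen by symbol, with earlier results of these data known but with no threshold on measured values, and all 10 were found among the 60612 Ensembl gene identifiers of the count tables. All 10 were also among the 17854 genes with enough counts to be tested. RNA was sequenced from SKBR3, an established HER2-amplified breast cancer line of mammary epithelial cells. The series holds 3 libraries of SKBR3 cells kept under rising trastuzumab, an antibody against HER2, for 30 weeks, named SKBR3_HR by the submitters and called trastuzumab below, and 3 libraries of untreated SKBR3 cells, called parental below. The labels do not say whether the drug was present at harvest, whether the trastuzumab cells were 1 clone or a mixed population, or whether replicates came from separate cultures. The p-values below are therefore measured against the variation among 3 libraries a group, and that variation may be technical.

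D-type cyclins link growth factor receptors such as HER2 to the cell cycle. Mitogen signals raise their level, and they bind CDK4 or CDK6 to phosphorylate RB1, which otherwise holds E2F transcription factors inactive. E-type cyclins, whose genes are E2F targets, then bind CDK2 and carry the cell into S phase. CDKN2C (p18) belongs to the INK4 inhibitors, which bind CDK4 and CDK6. CDKN1A (p21) and CDKN1B (p27) belong to the CIP/KIP inhibitors, which block CDK2 complexes and also take part in the assembly of cyclin D with CDK4. HER2 signalling is known to promote the breakdown of p27 protein in HER2-amplified breast cancer cells, and p27 protein is known to rise when trastuzumab acts on them. The values below are RNA levels and do not measure protein or its phosphorylation.

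The libraries held 71015138 to 82857810 counts. Levels are given as CPM (counts per scaled library total in M). Differences are log2 fold changes of trastuzumab over parental with their standard error (SE), and a gene is called changed when its adjusted p from edgeR's quasi-likelihood test, over all tested genes, is below 0.05. All 10 mammary epithelial markers were above 1 CPM in every library. Summed levels of 6 fibroblast markers were 6.07 to 10.9 CPM in trastuzumab and 9.20 to 19.2 CPM in parental libraries. Summed immune markers were 42.7 to 49.1 CPM in trastuzumab and 14.8 to 17.3 CPM in parental libraries, nearly all of it CD68, while PTPRC, CD3E, CD14 and LYZ were at 0 in at least 1 library. Summed endothelial markers were 79.0 to 86.0 CPM in trastuzumab and 28.6 to 31.7 CPM in parental libraries, most of it from CDH5, while PECAM1 and KDR were at 0 in at least 1 library. Their part in the results was not tested.

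In trastuzumab cells the RNA of the inhibitor CDKN1A and of RB1 was lower, that of CDK4 and of the inhibitors CDKN1B and CDKN2C was higher, and the most abundant of the 10, CCND1, averaged 0.942 times its parental level and was not called. Of the 10 genes, 8 were called changed, 5 higher (CCND3, CDK4, CCNE1, CDKN1B and CDKN2C) and 3 lower (CDK6, CDKN1A and RB1). CCND1 and CCNE2 were not called in this fit, though CCND1 was called lower in the corrected fit described below. Of all tested genes 49.3% were called, 23.9% higher and 25.4% lower, so changed genes were common throughout the transcriptome. The groups did not overlap in 7 of the 10 genes, 3 higher (CDK4, CDKN1B and CDKN2C) and 4 lower (CCND1, CDK6, CDKN1A and RB1), against 57.5% of all tested genes, 28.3% higher and 29.2% lower. The median log2 fold change was 0.047 over the 10 genes and -0.0057 over all tested genes (0.092 and -0.0065 in the corrected fit described below). When libraries were scaled by their totals alone, 3 of the 10 were called higher and 4 lower, with CCND3 and CCNE1 no longer called and CCND1 called lower. That scaling shifted the log2 fold changes of all genes by a median of -0.055. In bulk RNA, fewer cells in a given phase and less RNA per cell cannot be told apart.

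**Figure D1:**
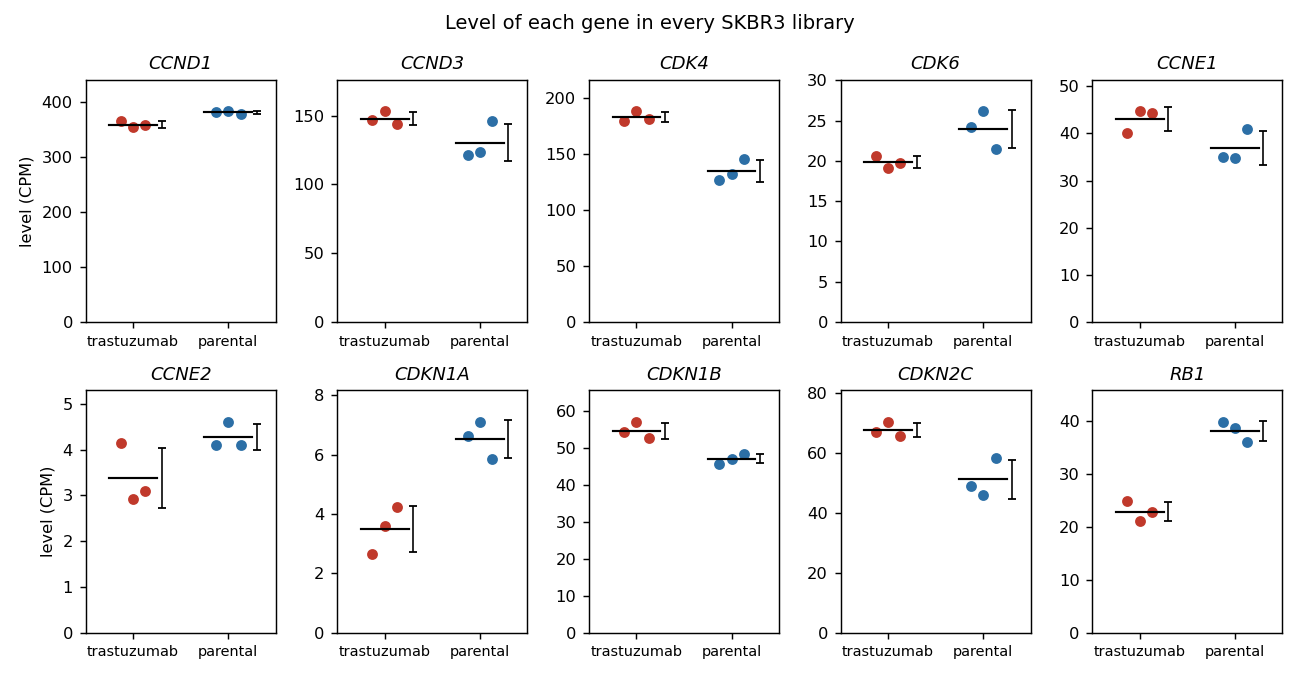
Level of each of the 10 genes in CPM (vertical axis, starting at 0) in the 3 trastuzumab libraries (red, left) and the 3 parental libraries (blue, right). Each point is 1 library, the horizontal line is the group mean and the bracket is ± 1 SD. CDK4, CDK6, CDKN1A, CDKN1B, CDKN2C and RB1 are called and do not overlap between the groups. CCND1 does not overlap and is not called, and CCND3, CCNE1 and CCNE2 overlap.

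Fold changes in these libraries followed the GC content of transcripts. Across 11666 protein-coding genes of at least 1 CPM, Spearman's rho between log2 fold change and GC content was 0.64, a description across genes that share the same 6 libraries. Among the 20% of these genes poorest in GC the median log2 fold change was -0.50, and among the 20% richest it was 0.37. Each difference is therefore also given from a second edgeR fit, called the corrected fit, that removes from every library a smooth trend on transcript GC content and length. It leaves a rho of 0.042, and it also removes any real change that goes with GC content or length. In the corrected fit 37.8% of 17649 genes were called, 19% higher and 18.9% lower, and 6 of the 10 genes were called, 3 in each direction. CDK4 and CDKN1B were higher and CDKN1A and RB1 lower in both fits. CDK6 was called lower in the first fit and higher in the corrected fit. CCND1 was called lower in the corrected fit alone (-0.35, edgeR adjusted p = 5.87e-07), and CCND3, CCNE1 and CDKN2C lost their calls there. Over all genes in both fits, 4740 were called in the same direction in both and 413 in opposite directions. The correction takes GC content and length together, and the part of either in these results was not tested.

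**Figure D2:**
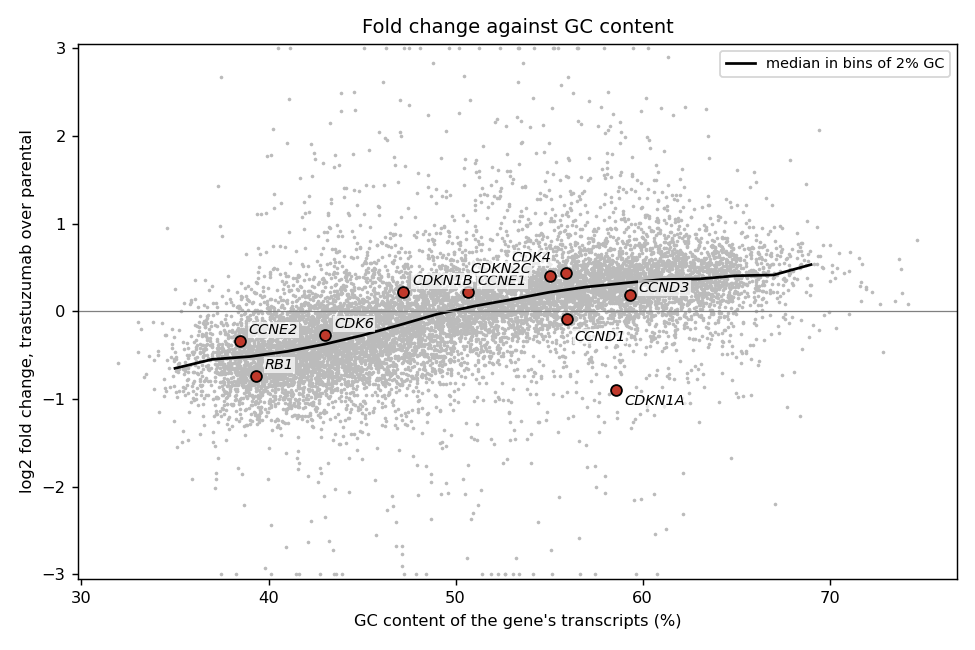
Log2 fold change of trastuzumab over parental (vertical axis) against the GC content of the gene's transcripts in percent (horizontal axis). Grey points are protein-coding genes of at least 1 CPM, with values beyond -3 or 3 drawn at the edge, the black line is their median in GC bins, and red points are the 10 genes. CDKN1A lies far below the line and CDK6 above it.

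The promoters of CDK4, CDKN1A and CDKN1B are printed here because these genes kept their call and direction in both fits. The other condition was a single entry in the RefSeq promoter set used here. The start sites lie 3703, 2254 and 2310 bases inside the GENCODE 29 bounds of CDK4, CDKN1A and CDKN1B, counted from the 5′ end of the gene. RB1 also kept its call, but its only entry lies 172724 bases inside the gene and is not printed. The sequences are RefSeq's on GRCh38.p14 and run 5′ to 3′ on the strand of the gene, with 250 bases before the start site and 50 after it. Capitals mark matches on either strand to the E-box CACGTG, the GC box GGGCGG and the CCAAT box. Also searched were the E2F motif, spelled TTTCCCGC, TTTCGCGC, TTTGCCGC or TTTGGCGC, and the forkhead motif TGTTTAC. No matches of different motifs overlapped.
CDK4, chr12:57752261-57752560, minus strand: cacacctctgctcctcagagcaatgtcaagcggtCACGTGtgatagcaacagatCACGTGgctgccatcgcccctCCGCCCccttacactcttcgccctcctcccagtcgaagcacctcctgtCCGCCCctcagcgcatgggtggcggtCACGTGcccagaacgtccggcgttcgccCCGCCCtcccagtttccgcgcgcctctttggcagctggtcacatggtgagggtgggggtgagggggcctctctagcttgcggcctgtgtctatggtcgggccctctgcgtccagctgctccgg
CDKN1A, chr6:36678464-36678763, plus strand: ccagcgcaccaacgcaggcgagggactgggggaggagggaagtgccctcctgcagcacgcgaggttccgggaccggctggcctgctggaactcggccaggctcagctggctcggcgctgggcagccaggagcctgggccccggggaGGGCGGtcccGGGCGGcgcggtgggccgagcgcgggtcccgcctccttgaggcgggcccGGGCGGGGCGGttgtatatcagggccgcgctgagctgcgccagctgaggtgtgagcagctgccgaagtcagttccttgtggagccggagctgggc
CDKN1B, chr12:12717118-12717417, plus strand: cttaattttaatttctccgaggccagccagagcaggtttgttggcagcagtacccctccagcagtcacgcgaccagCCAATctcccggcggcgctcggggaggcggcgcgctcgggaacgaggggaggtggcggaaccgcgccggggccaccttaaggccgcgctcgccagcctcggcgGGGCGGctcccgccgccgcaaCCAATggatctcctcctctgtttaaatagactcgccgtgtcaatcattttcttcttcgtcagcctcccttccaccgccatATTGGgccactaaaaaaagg
The CDK4 window held 3 E-boxes, at -216, -196 and -101 from the start site, and 3 GC boxes. An E-box of this spelling was present in 7.26% of 35116 promoter windows of the same length, and CACGTG is known as the preferred site of MYC with its partner MAX. MYC, named for this motif after its values were seen, averaged 181 ± 7.68 CPM in trastuzumab and 173 ± 6.33 CPM in parental libraries (SD, n = 3 each) and was not called (edgeR adjusted p = 0.274). It was called lower in the corrected fit (log2 fold change -0.28, edgeR adjusted p = 6.77e-06). The CDKN1A window held 4 GC boxes, a motif found in 45% of all windows. The CDKN1B window held 3 CCAAT boxes, found in 34.6% of windows, and 1 GC box. Promoter entries were read for 8 of the 10 genes and not for CCND1 or CCNE2, which does not show that RefSeq lacks them. None of the 13 entries read held the E2F motif, present in 3.31% of all windows. At that share 13 windows are too few for the absence to describe these genes. Some of the windows, as that of RB1, also lie far inside the gene. A match describes letters only and is not evidence of a bound factor.

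CCND1 encodes cyclin D1, the D-type cyclin most often overexpressed in breast cancer (ENSG00000110092, chr11:69641087-69654474 on hg38 in GENCODE 29, as for all positions of genes below, plus strand). It had 365, 354 and 358 CPM in the trastuzumab libraries, against 382, 383 and 379 CPM in the parental libraries. Every trastuzumab library was below every parental one, by a small margin. The log2 fold change was -0.086 ± 0.040 (SE), with a 95% interval of -0.17 to -0.0014, and it was not called (edgeR adjusted p = 0.0877). The interval limits a fall in this fit to 0.89 times the parental level. With library totals alone it was called lower (log2 fold change -0.14, edgeR adjusted p = 0.00587), and in the corrected fit it was called lower by more (-0.35 ± 0.035, edgeR adjusted p = 5.87e-07). It was also called lower in limma on log2(FPKM + 1), with and without a filter on low values (-0.15, limma adjusted p = 0.00316 and 0.00889). The same held on log2(FPKM + 0.1) (-0.16, limma adjusted p = 0.00318). Over all genes the median shift from the first fit was -0.055 with library totals and -0.062 to -0.068 in these limma fits. These settings share a downward shift and are not separate evidence about CCND1. CCND1 has 55.9% GC, close to CDK4, which lay on the other side of 0. Both LTO1, on the other strand, and CCND1 lie at this locus, and the strand setting of the counting is not given in the sources used here.

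CCND3 encodes cyclin D3, an alternative partner of the same kinases (ENSG00000112576, chr6:41934933-42050357, minus strand). It had 147, 153 and 144 CPM in trastuzumab libraries and 122, 123 and 146 CPM in parental libraries. Parental replicate 3 lay within the range of the trastuzumab libraries, so the groups overlapped. CCND3 was called higher (log2 fold change 0.18 ± 0.064, edgeR adjusted p = 0.0274). The call was lost without trastuzumab replicate 1 or 2 (edgeR adjusted p = 0.0596 and 0.102) and without parental replicate 1 or 2 (0.124 and 0.121). After correction the value was -0.10 and was not called (edgeR adjusted p = 0.123). In limma on log2(FPKM + 1) it was not called with or without a filter on low values (0.11, limma adjusted p = 0.136 and 0.469). On log2(FPKM + 0.1) it was not called either (0.12, limma adjusted p = 0.136). The remaining D-type cyclin, CCND2, was almost absent, with 0.158 ± 0.052 CPM in trastuzumab and 0.190 ± 0.22 CPM in parental libraries (SD, n = 3 each).

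Per unit of length, CCND1 was the main D-type cyclin in both groups. Its share of the summed FPKM of CCND1, CCND2 and CCND3 was 75.1%, 73.7% and 75.1% in trastuzumab libraries and 79.2%, 78.9% and 75.8% in parental libraries. All 3 trastuzumab values were below all 3 parental values. The difference was -3.37 percentage points, with p = 0.1 in a two-sided exact permutation test, the smallest that 3 against 3 libraries can give.

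CDK4 encodes the kinase that partners D-type cyclins in mammary epithelium (ENSG00000135446, chr12:57747727-57756013, minus strand). Its level was 179.6, 188 and 182 CPM in trastuzumab libraries and 127, 132 and 146 CPM in parental libraries. The groups were well separated, and parental replicate 3 was again the parental library nearest to the trastuzumab ones. CDK4 rose 1.36-fold (log2 fold change 0.44 ± 0.053, 95% interval 0.33 to 0.55, edgeR adjusted p = 3.43e-06). With the correction it was still higher, by a smaller amount (0.12, edgeR adjusted p = 0.0222). MARCHF9 and TSPAN31 overlap CDK4 on the other strand.

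CDK6, the closest relative of CDK4 and best known for its role in blood cells (ENSG00000105810, chr7:92604921-92836594, minus strand), was scarce in comparison. It had 20.6, 19.1 and 19.8 CPM in trastuzumab libraries and 24.2, 26.1 and 21.5 CPM in parental libraries. The groups did not overlap, with parental replicate 3 once more the nearest. CDK6 was called lower (log2 fold change -0.27 ± 0.087, edgeR adjusted p = 0.0152). This call was lost without trastuzumab replicate 2 or 3 (edgeR adjusted p = 0.0636 and 0.0508) or without parental replicate 2 (0.0997). It was also lost in limma on log2(FPKM + 1) without a filter on low values (limma adjusted p = 0.0820). In the corrected fit CDK6, with 43.0% GC and 12260 exonic bases, was called higher (0.22, edgeR adjusted p = 0.0252), so its direction depended on the correction.

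CDK4 made up 97.2%, 97.5% and 97.3% of the summed FPKM of CDK4 and CDK6 in trastuzumab libraries, against 95.4%, 95.3% and 96.4% in parental libraries. The ratio of CDK4 to CDK6 FPKM averaged 36.6 ± 2.25 in trastuzumab and 22.6 ± 3.78 in parental libraries (SD, n = 3 each). The share was higher in every trastuzumab library than in any parental library, by 1.64 percentage points on average (two-sided exact permutation p = 0.1, the smallest possible). In the corrected fit the log2 fold change of CDK6 (0.22) was above that of CDK4 (0.12), so this difference depended on the correction.

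CCNE1 encodes cyclin E1, the activator of CDK2 at S phase entry (ENSG00000105173, chr19:29811898-29824308, plus strand). It had 40.1, 44.7 and 44.4 CPM in trastuzumab libraries and 35.03, 34.7 and 41.04 CPM in parental libraries. The groups overlapped, since parental replicate 3 exceeded trastuzumab replicate 1. CCNE1 was called higher (log2 fold change 0.22 ± 0.079, edgeR adjusted p = 0.0281), and the call was lost in the corrected fit (0.078, edgeR adjusted p = 0.429). It was also lost without trastuzumab replicate 2 or 3 (edgeR adjusted p = 0.101 for each) and without parental replicate 1 or 2 (0.102 and 0.121). In limma on log2(FPKM + 1) CCNE1 was not called with or without a filter on low values (0.14, limma adjusted p = 0.0716 and 0.336). On log2(FPKM + 0.1) it was not called either (0.15, limma adjusted p = 0.0722).

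CCNE2 encodes cyclin E2 and was the least abundant of the 10 genes per unit of length (ENSG00000175305, chr8:94879770-94896678, minus strand). It had 4.14, 2.91 and 3.11 CPM in trastuzumab libraries and 4.10, 4.60 and 4.11 CPM in parental libraries. Trastuzumab replicate 1 was as high as the parental libraries, and the other trastuzumab libraries were below all of them. The difference was not called (log2 fold change -0.34 ± 0.18, 95% interval -0.73 to 0.054, edgeR adjusted p = 0.150). Without trastuzumab replicate 1 it was called lower (-0.51, edgeR adjusted p = 0.0475), and in the corrected fit it was 0.11 and not called (edgeR adjusted p = 0.70). NDUFAF6 and INTS8 overlap CCNE2 on the other strand, so its low level is uncertain to that extent. CCNE1 made up 94.6%, 96.5% and 96.3% of E-type cyclin FPKM in trastuzumab libraries and 93.9%, 93.1% and 94.7% in parental libraries, which overlapped (difference 1.88 percentage points, two-sided exact permutation p = 0.2).

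CDKN1A, the stress-inducible inhibitor p21, showed the largest difference of the 10 genes (ENSG00000124762, chr6:36676460-36687339, plus strand). Its level was low in both groups, 2.67, 3.59 and 4.24 CPM in trastuzumab libraries and 6.64, 7.10 and 5.86 CPM in parental libraries. These levels rest on 187, 290 and 340 counts in trastuzumab and 491, 523 and 426 counts in parental libraries. The groups were separated in every library. CDKN1A fell to 0.536 times its parental level (log2 fold change -0.90 ± 0.18, 95% interval -1.28 to -0.52, edgeR adjusted p = 5.09e-04). In the corrected fit the fall was larger (-1.28 ± 0.18, edgeR adjusted p = 2.54e-05). CDKN1A has 58.6% GC and 3050 exonic bases.

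CDKN1B, the p27 inhibitor, moved the opposite way (ENSG00000111276, chr12:12715058-12722371, plus strand). It had 54.2, 56.9 and 52.5 CPM in trastuzumab libraries and 45.7, 47.0 and 48.1 CPM in parental libraries. All trastuzumab values were above all parental values. CDKN1B rose by a modest amount (log2 fold change 0.22 ± 0.061, edgeR adjusted p = 0.00708), and by about as much in the corrected fit (0.26, edgeR adjusted p = 0.00128). The call missed the threshold in limma on log2(FPKM + 1) without a filter on low values (adjusted p = 0.0542). The transcript AC008115.3 overlaps it on the same strand.

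Within the CIP/KIP family CDKN1A held a smaller share in every trastuzumab library. CDKN1A made up 4.0%, 5.11% and 6.45% of the summed FPKM of CDKN1A, CDKN1B and CDKN1C in trastuzumab libraries, against 11.0%, 11.4% and 9.39% in parental libraries. The shares did not overlap (difference -5.42 percentage points, two-sided exact permutation p = 0.1, the smallest possible). CDKN1C (p57) was barely detected, with 0.172 ± 0.13 CPM in trastuzumab and 0.168 ± 0.063 CPM in parental libraries (SD, n = 3 each), so nearly all of the remainder was CDKN1B. The ratio of CDKN1B to CDKN1A FPKM averaged 19.0 ± 4.74 in trastuzumab and 8.47 ± 0.996 in parental libraries (SD, n = 3 each).

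CDKN2C, the INK4 inhibitor p18, had 66.9, 70.3 and 65.8 CPM in trastuzumab libraries and 49.1, 46.0 and 58.4 CPM in parental libraries (ENSG00000123080, chr1:50960745-50974633, plus strand). The groups did not overlap, and parental replicate 3 was the parental library closest to the trastuzumab ones. CDKN2C rose (log2 fold change 0.40 ± 0.077, 95% interval 0.24 to 0.57, edgeR adjusted p = 3.82e-04). After correction the value was 0.11 and was not called (edgeR adjusted p = 0.215). It also missed the threshold in limma on log2(FPKM + 1) with no filter (adjusted p = 0.0797).

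RB1 encodes the pocket protein that the cyclin D kinases inactivate (ENSG00000139687, chr13:48303726-48599436, plus strand). Its level was 24.9, 21.1 and 22.8 CPM in trastuzumab libraries and 39.8, 38.7 and 36.1 CPM in parental libraries. The gap between the groups was several times the spread within either of them. RB1 fell to 0.600 times its parental level (log2 fold change -0.74 ± 0.079, 95% interval -0.91 to -0.57, edgeR adjusted p = 9.24e-07). With 39.3% GC it lies among the GC-poor genes, and in the corrected fit the log2 fold change was -0.24 ± 0.064 and was still called (edgeR adjusted p = 0.00737). RCBTB2 overlaps it on the other strand.

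**Figure D3:**
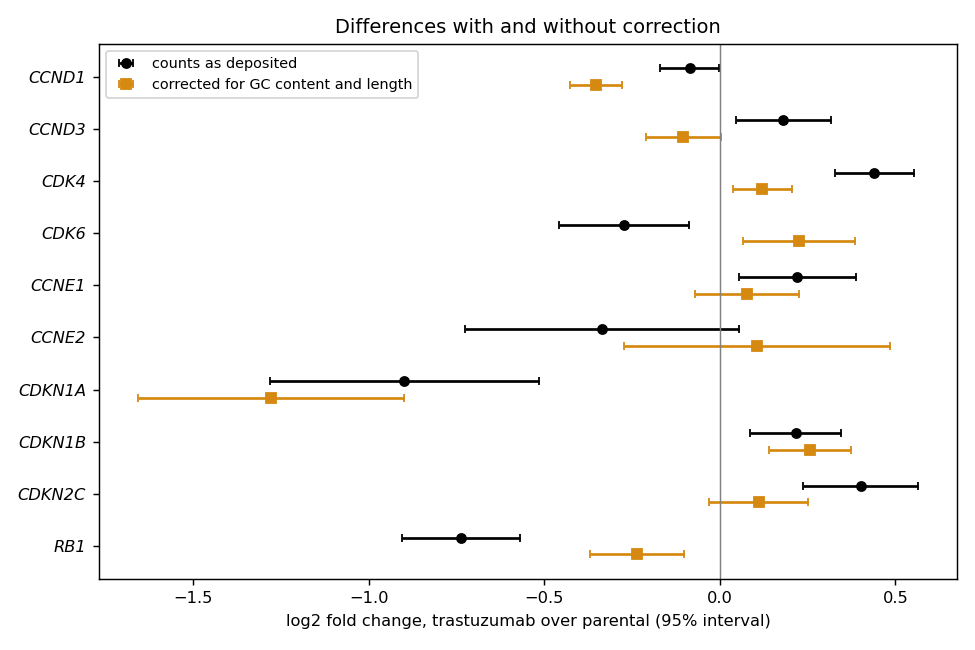
Log2 fold change of trastuzumab over parental (horizontal axis) for the 10 genes, with 95% intervals, from the counts as deposited (black circles) and from the corrected fit (orange squares). The intervals of CCND1, CDK4, CDKN1A, CDKN1B and RB1 stay on 1 side of 0 in both, whereas CDK6 changes side. Intervals are not adjusted for the number of genes tested, and CCND1 was not called in the first fit.

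Levels of different genes were compared in the authors' FPKM, which divides by gene length. In trastuzumab libraries the order was CCND1 (mean 64.8 FPKM), CDK4 (50.8), CCND3 (22.0), CDKN2C (19.2), CDKN1B (18.3), CCNE1 (15.003), RB1 (3.06), CDK6 (1.39), CDKN1A (1.00) and CCNE2 (0.653). In parental libraries it was CCND1 (72.2), CDK4 (39.3), CCND3 (20.4), CDKN1B (16.5), CDKN2C (15.3), CCNE1 (13.5), RB1 (5.35), CDKN1A (1.96), CDK6 (1.76) and CCNE2 (0.87). Cyclin D1 and CDK4 RNA thus led in both groups. In trastuzumab libraries the neighbours CDKN2C and CDKN1B overlapped, as did CDKN1A and CCNE2. In parental libraries CDKN1B overlapped CDKN2C, CDKN2C overlapped CCNE1, and CDKN1A overlapped CDK6. CDKN1A ranked below CDK6 in trastuzumab libraries, without overlap. In parental libraries their ranges overlapped, but CDKN1A was above CDK6 within each library (2.01 and 1.79, 2.14 and 1.93, 1.74 and 1.56 FPKM).

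**Figure D4:**
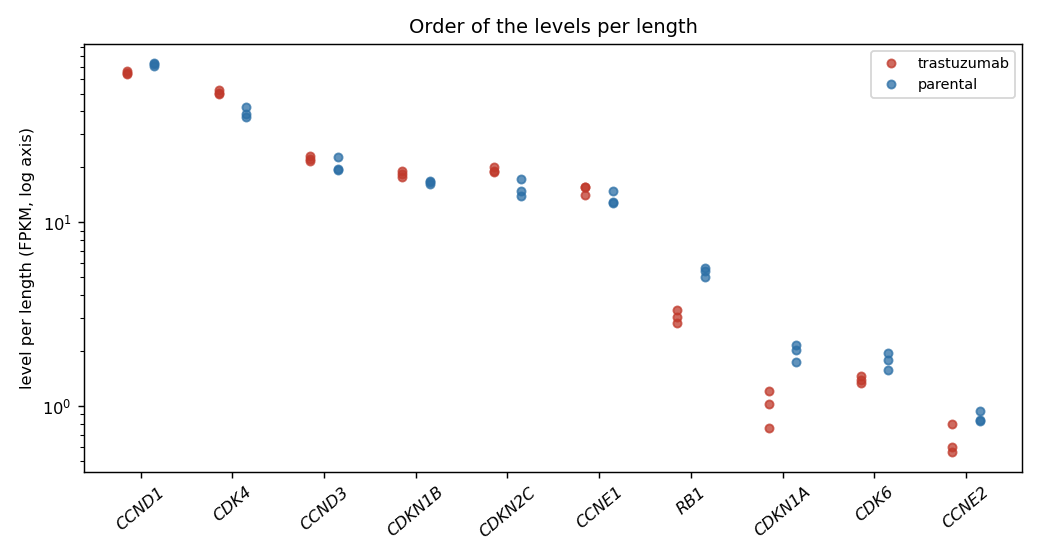
FPKM of the 10 genes (vertical axis, logarithmic) in the 3 trastuzumab libraries (red, left of each pair) and the 3 parental libraries (blue, right). Genes are ordered by their parental mean, and a wide gap separates CCNE1 and the 5 genes above it from RB1, CDKN1A, CDK6 and CCNE2.

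For each of the 10 genes, the most similar profiles over the 6 libraries were sought among 8696 protein-coding genes of at least 10 CPM, as the Euclidean distance between centred log2 CPM values. The nearest were APLP2 for CCND1 (distance 0.023), TRAPPC5 for CCND3 (0.041), CAPN1 for CDK4 (0.033), VCPIP1 for CDK6 (0.066) and SMPD4 for CCNE1 (0.059). For the others they were CCDC125 for CCNE2 (0.11), PARPBP for CDKN1A (0.23), PRR13 for CDKN1B (0.023), ACAP3 for CDKN2C (0.067) and BPTF for RB1 (0.039). The second nearest were TGOLN2, PAK6, SLC2A4RG, ZNF217 and DBP for the first 5 genes, and OIP5, ZBTB38, PRXL2B, MLST8 and PHC3 for the last 5. The distances were largest for CDKN1A and CCNE2, the 2 of the 10 genes under 10 CPM, a level kept out of the search. With 8696 candidates and 6 libraries near matches are easily found, and they do not show shared control.

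Other genes of G1 control were mostly not called or lower. The counts for this and the following lists stand beside those of all tested genes, 23.9% higher and 25.4% lower. In the corrected fit these shares were 19% and 18.9%. Of the 9 remaining G1 cyclins, kinases, inhibitors and pocket proteins tested, 1 was called higher, 2 lower and 6 not called (median log2 fold change -0.073), and in the corrected fit none was higher and 3 were lower (median -0.21). RBL1 (p107), a relative of RB1, fell like it, with 19.1 ± 1.6 CPM in trastuzumab and 31.0 ± 2.14 CPM in parental libraries (log2 fold change -0.70, edgeR adjusted p = 3.35e-06; corrected -0.29, 0.00594). The third pocket protein gene, RBL2 (p130), was lower as well, with 39.2 ± 1.02 CPM in trastuzumab and 48.9 ± 2.32 CPM in parental libraries (-0.32, edgeR adjusted p = 6.06e-04), but was not called in the corrected fit (0.13). CDKN2A, which encodes p16 and ARF, was higher, with 30.9 ± 1.66 CPM in trastuzumab and 23.3 ± 2.73 CPM in parental libraries (0.41, edgeR adjusted p = 9.2e-04), and was not called in the corrected fit (0.049). CDKN2B-AS1 overlaps it on the other strand. CDK2, the partner of E-type cyclins, averaged 57.7 ± 2.01 CPM in trastuzumab and 60.7 ± 0.768 CPM in parental libraries and was not called (edgeR adjusted p = 0.317), though it was lower in the corrected fit (-0.21, 0.00268). CDKN2D (p19) had -0.019 and was not called, and in the corrected fit it was lower (-0.47, edgeR adjusted p = 0.0256). CDKN2B (p15) averaged 5.93 CPM in trastuzumab and 6.62 CPM in parental libraries and was not called in either fit. CDK3 stayed below 1 CPM on average in both groups.

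Of 17 tested genes for E2F and DREAM factors, the transcription factors downstream of the pocket proteins, 5 were called higher and 11 lower (median log2 fold change -0.26), and in the corrected fit none was higher and 8 were lower (median -0.089). Between the fits 7 kept call and direction and 1 was called in opposite directions. E2F3, an activator E2F, averaged 38.0 ± 0.991 CPM in trastuzumab and 60.1 ± 2.2 CPM in parental libraries (SD, n = 3 each). E2F5 fell by 1.10 on the log2 scale, LIN54 by 0.68 and E2F7 by 0.59, and all of these were also lower in the corrected fit. Of 23 E2F target genes of S phase entry, 6 were higher, 7 lower and 10 not called (median 0.017), with 4 higher and 8 lower in the corrected fit (median -0.022). Of these targets 6 kept call and direction and 2 were called in opposite directions. The genes with the largest changes in that list were all lower in both fits: POLA1, a DNA polymerase subunit, fell by 0.94 on the log2 scale, MCM10, a replication factor, by 0.77, CCNA2, cyclin A2, by 0.68 and RRM2, a ribonucleotide reductase subunit, by 0.45.

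None of the listed genes of the G2 and M phases was called higher in either fit. Of 15 tested, 9 were lower and 6 were not called (median log2 fold change -0.39), and in the corrected fit 13 were lower (median -0.39). MKI67, the proliferation marker Ki-67, averaged 104 ± 5.68 CPM in trastuzumab and 225 ± 3.95 CPM in parental libraries (log2 fold change -1.11, edgeR adjusted p = 5.74e-11; corrected -0.83). TOP2A, a topoisomerase of dividing cells, averaged 192 ± 17.0 CPM in trastuzumab and 362 ± 33.3 CPM in parental libraries (SD, n = 3 each). The mitotic kinase gene BUB1 fell by 0.92 and CCNA1 by 1.06 on the log2 scale. All of these were lower in the corrected fit too.

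**Figure D5:**
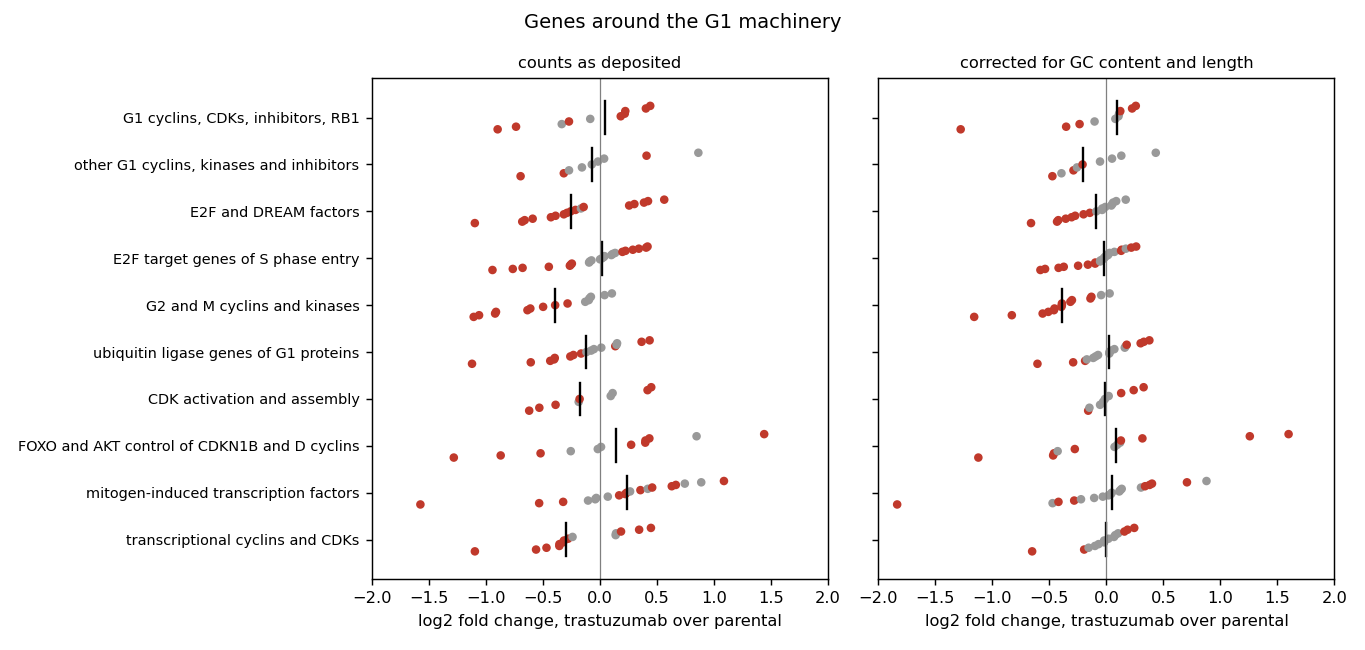
Log2 fold change of trastuzumab over parental (horizontal axis) for the tested genes of each list (rows), from the counts as deposited (left) and from the corrected fit (right). Points are genes, red where called and grey where not, and the bar is the list's median. The G2 and M genes keep a median of -0.39 in both, whereas the medians of several other lists move towards 0 in the corrected fit.

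Genes that control the stability or activity of the G1 proteins gave mixed counts. Of 17 ubiquitin ligase genes and partners, 3 were higher and 8 lower, and in the corrected fit 4 were higher and 3 lower. Between the fits 5 kept call and direction and 1 was called in opposite directions. CUL4B, a cullin scaffold, averaged 23.7 ± 1.2 CPM in trastuzumab and 51.6 ± 3.08 CPM in parental libraries, and it was lower in both fits, as was DTL, a substrate receptor of such ligases for CDKN1A protein. AMBRA1, the receptor that marks D-type cyclins for breakdown, averaged 80.7 ± 3.21 CPM in trastuzumab and 59.7 ± 4.1 CPM in parental libraries and was higher in both fits (log2 fold change 0.43, edgeR adjusted p = 1.35e-05; corrected 0.30). USP28 was lower (-0.44) and not called in the corrected fit. Of 9 genes for CDK activation and assembly, 2 were higher and 4 lower, against 3 higher and 1 lower in the corrected fit. PKMYT1, an inhibitory kinase of CDK1, was higher in both fits (0.45, corrected 0.13). CCNH (-0.62), WEE1 (-0.53) and CDC37, a chaperone partner that loads CDK4 (0.42), were called in the first fit alone.

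Of 12 genes tested for FOXO and AKT control of CDKN1B and D-type cyclins, 5 were higher and 3 lower (median log2 fold change 0.14), with 4 in each direction in the corrected fit (median 0.083). FOXO1, a transcription factor known to induce CDKN1B, averaged 12.1 ± 1.39 CPM in trastuzumab and 29.4 ± 1.1 CPM in parental libraries (-1.28, edgeR adjusted p = 1.34e-08; corrected -1.12). GSK3B, whose kinase marks cyclin D1 for breakdown, was lower too (-0.87, corrected -0.47), as was KLF6, a zinc finger transcription factor (-0.52, corrected -0.46). TXNIP averaged 127 ± 3.8 CPM in trastuzumab and 47.0 ± 4.32 CPM in parental libraries (1.44, corrected 1.60).

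Of 19 genes for mitogen-induced transcription factors or factors related to them, 8 were higher and 3 lower (median log2 fold change 0.23). In the corrected fit 4 were higher and 3 lower (median 0.046). ETV4, an ETS factor, averaged 30.2 ± 1.8 CPM in trastuzumab and 14.2 ± 2.26 CPM in parental libraries (1.09, edgeR adjusted p = 2.73e-07; corrected 0.71). JUN, a known activator of CCND1, was higher (0.66, corrected 0.34), while ETS1 was lower (-0.53) and not called in the corrected fit. The list also holds MXD4, which is not a mitogen-induced factor and was higher as well (0.63, corrected 0.38). Of 14 cyclins and CDKs of the transcription machinery, 3 were higher and 8 lower, with 3 higher and 2 lower in the corrected fit. Only 1 of them kept its call and direction, and 2 were called in opposite directions in the 2 fits. CDK19 of the Mediator complex was lower in both fits (-1.10, corrected -0.65), whereas CCNT2 (-0.56), CCNT1 (-0.47) and CDK9 (0.45) were called in the first fit alone. Over the 135 distinct genes of all these lists, 33 were called higher and 55 lower, and in the corrected fit 22 were higher and 45 lower. Among all tested genes 49.3% were called in the first fit and 37.8% in the corrected fit.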

How the data were processed

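RNA was column-purified and 1 µg entered a directional library kit, per the labels' protocols. The authors deposited, for each of the 6 libraries, raw counts of reads per gene and FPKM values, which divide counts by gene length and library size. STAR 2.4.2a and hg38 are named in the submitters' processing notes. No source used here gives the counting program, its strand setting or its annotation, so overlapping genes may share reads. FPKM were given for 33686 of 60612 genes, and the others held 1 count in all.

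The test was edgeR 4.0.16 (R 4.3.3) on counts, with TMM factors, filterByExpr, the robust quasi-likelihood fit, no covariate, and Benjamini-Hochberg adjustment over all tested genes. CPM were computed from the counts with TMM-scaled totals, so that 3 counts, the limit for a count of 0, are 0.0372 to 0.0428 CPM. This covers counting error only. The corrected fit added offsets from splines (5 degrees of freedom) on the GC content and exonic length of each gene in GENCODE 29. The scripts were tested on simulated counts. The 10 genes, the other lists, the tests and the alternatives were chosen with earlier results of these data known. The text names the 10 genes, the 2 nearest profiles of each, all other G1 regulators, and from every other list up to 4 called genes with the largest change and at least 1 CPM. MYC was added after values were seen, and some listed genes are not reported here. Alternatives were other scalings and filters, DESeq2 1.42.0, limma 3.58.1 (voom, and log2 of FPKM plus 1 or 0.1), an adjusted p below 0.01, the replicate number as a block, and leaving out each library.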

Additional observations from a re-analysis of the deposited data

How the results depend on the processing

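The 8808 genes called ranged from 6341 to 8986 over 20 alternatives, and from 7882 to 8689 when single libraries were left out. CDK4, CDKN1A (log2 fold change -1.29 to -0.57) and RB1 (-0.80 to -0.24) kept their direction and call in all of them. The count of the 10 genes called, 8 in the reported fit, was 4 in limma on log2(FPKM + 1) with no filter, 5 at an adjusted p below 0.01, and 5 to 8 when single libraries were left out, 5 without trastuzumab replicate 2 or parental replicate 2. Same-numbered libraries of the 2 groups deviated together only very weakly (correlations of deviations 0.039, 0.037 and 0.033). Each library's highest correlation was with its own number, and differently numbered libraries had -0.049 to 0.010. Because the correlations were this small, the numbers were not taken as pairs. With the replicate number as a block 8653 genes and 8 of the 10 genes were called, and with the block and the correction 6341 and 6. With the correction, and with the correction and the block, signs turned for CCND3 (-0.10 in both), CDK6 (0.22 and 0.23), CCNE2 (0.11 and 0.098), RBL2 (0.13 in both) and CCNT2 (0.017 and 0.015). The cause was not tested. Signs also turned for genes near 0 or barely detected. CCND2 had 0.29 in limma-voom, 0.24 with the block, 0.45 with both and -0.71 to 1.33 without single libraries. CDKN1C had -0.019 with library totals, -0.23 in voom, -0.0098 on unfiltered FPKM, -0.39 corrected, -0.17 with the block, -0.59 with both and -0.70 to 0.47 without single libraries, -0.20 of these without parental replicate 2. CDKN2D had 0.033 with upper quartile factors, 0.00031 in DESeq2, 0.020 without trastuzumab replicate 2 and -0.15 to 0.13 without single libraries. On CPM, without length, the difference in the CDK4 share was 5.35 and in the CCNE1 share 3.09 percentage points. Without single libraries the differences ranged from -4.44 to -2.78 for the CCND1 share, 1.42 to 2.01 for CDK4, 1.5 to 2.48 for CCNE1 and -6.05 to -4.83 for CDKN1A, with no test at that size. Over the 41 other genes named from the lists, 756 of 805 values kept direction and call, 22 lost the call, 7 gained one and 20 turned sign. With 3 libraries a group, no exact permutation test can give a p under 0.1.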
